A study of Penicillium oxalicum with 9 samples.

Results

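In *Penicillium oxalicum*, a filamentous fungus that secretes amylases, 153 of 9721 genes (1.57%) were lowered both in the *rsrA* and in the *rsrB* deletion strain. The members were chosen from their own expression values. On the log2(FPKM + 1) scale, the mean of Δ*rsrA* and the mean of Δ*rsrB* each had to lie at least 1 below the mean of Δ*ku70*. All 6 mutant values also had to lie under all 3 values of Δ*ku70*, and the range of the Δ*ku70* values could not exceed 1.5. The deleted genes *rsrA* and *rsrB* themselves were left out. FPKM scales the fragments of a gene to the length of its transcript and to all mapped fragments of its library, and 1 was added before the logarithm so that values of 0 could be kept. Every difference below is on this log2 scale unless a level in FPKM is named, and it understates the change of weakly expressed genes.

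Δ*rsrA* lacks a transcription factor with a SANT domain, and Δ*rsrB* lacks a transcription factor with a Zn2Cys6 zinc finger. Both were made in Δ*ku70*, a parental strain without *ku70*, a gene of non-homologous end joining, so all 3 strains carry the *ku70* deletion and no wild type was analysed here. The study's strain list gives both mutants a geneticin resistance marker that Δ*ku70* lacks. The part of this marker cannot be told apart from that of the deletions and was not tested. There were 3 libraries per strain, each of poly(A) RNA. Spores came from plates kept at 28 °C, mycelia were grown with glucose for 24 h, and they were then moved to an inducing medium for 24 h. Its carbon source is uncertain, because the labels give both raw starch and Avicel (microcrystalline cellulose) and the study's methods give commercial corn starch.

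Zn2Cys6 proteins are a family of transcription factors typical of fungi, which bind DNA through a cluster of cysteines that hold zinc. SANT domains are found in proteins that bind DNA or the tails of histones. In filamentous fungi, genes for starch-degrading enzymes stay low on glucose and are switched on by transcription factors when starch or its breakdown products are present. The identifiers of the deposited lists matched 0 entries of the reference table, so the members have no names, functions or sequences here and are described by their values and by the order of their identifiers.

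The deleted genes matched their strains. POX01907, which is *rsrA*, had 0.01, 0.01 and 0.04 FPKM in Δ*rsrA*, against 22.9, 17.1 and 16.5 FPKM in Δ*ku70*. POX08340, inferred to be *rsrB* from the labels, was listed at 0 in all 3 Δ*rsrB* libraries, against 30.6, 35.7 and 30.6 FPKM in Δ*ku70*. POX08340 had 8.26, 8.01 and 7.28 FPKM in Δ*rsrA*, under all 3 values of Δ*ku70*, so it would have been a member had it not been left out. Absolute sequencing depth is unknown. The most common ratio of FPKM to that in Δ*ku70* replicate 2 among weak genes, which runs inverse to relative depth, lay between 0.992 and 1.02. In the other libraries 15.5% to 27.5% of those genes were at the ratio. Replicate 1 of Δ*ku70* stood apart from the other parental libraries, with r = 0.915 and 0.906 across all genes to replicates 2 and 3, which had r = 0.984 to each other.

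The choice narrowed in steps. Both deletion strains reached the limit of -1 for 355 genes, 96 of which were lost because a mutant value overlapped a parental value, and a further 106 of the remaining 259 because the parental values spread too far. In 91 of these 106 genes, replicate 1 of Δ*ku70* was the value farthest from the others, and in 90 it was the highest. On the deposited scale, Δ*rsrB* was the narrower gate. Only the limit on Δ*rsrB* kept out 257 genes, and only the limit on Δ*rsrA* kept out 33. The member nearest to each limit had a difference of -1.01 for Δ*rsrA*, a difference of -1.004 for Δ*rsrB* and a parental range of 1.49. The nearest genes outside had -0.95, -0.999 and 1.52.

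As a group, the members lay below the middle of the transcriptome in both mutants and above it in the parental strain. Their median level was 7.95, 6.43 and 5.58 FPKM in replicates 1 to 3 of Δ*rsrA*, and 12.03, 10.56 and 9.21 FPKM in those of Δ*rsrB*, against 37.4, 32.8 and 23.7 FPKM in those of Δ*ku70*. The median over all 9721 genes was 16.4 to 17.2 FPKM in Δ*rsrA* and 21.8 to 22.3 FPKM in Δ*rsrB*, against 21.4 to 22.6 FPKM in Δ*ku70*. The members held 0.598%, 0.526% and 0.454% of the summed FPKM in Δ*rsrA* and 0.836%, 0.705% and 0.644% in Δ*rsrB*, against 3.75%, 2.79% and 2.17% in Δ*ku70*. No member library median of a mutant reached that of any Δ*ku70* library, which follows from the choice of members.

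**Figure D1:**
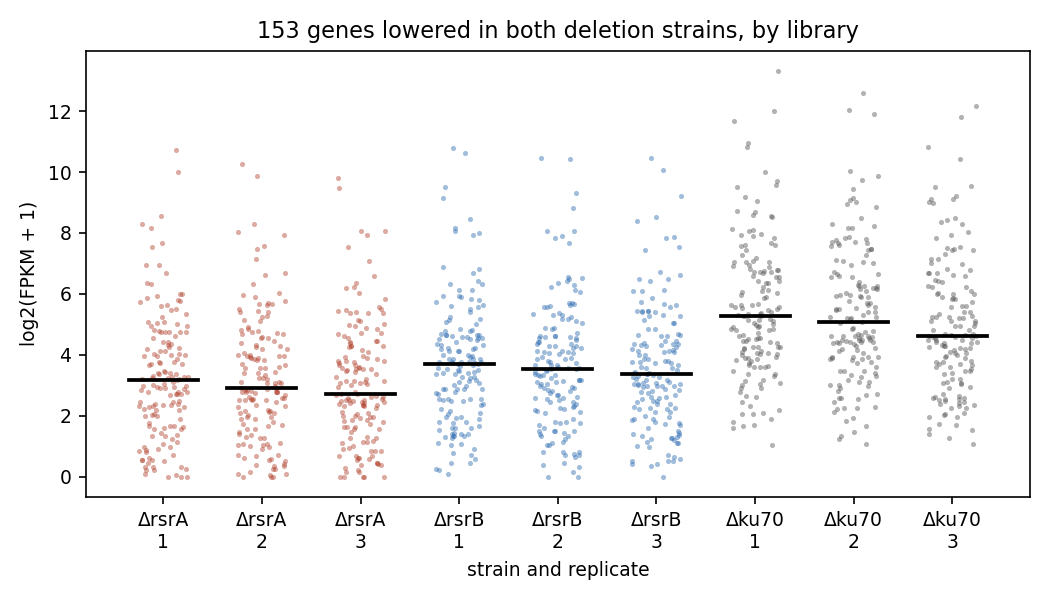
Level of each of the 153 members in each library, as log2(FPKM + 1), with 1 point per gene and a black line at the library's median. The median lines lie at 2.72 to 3.16 in the 3 Δ*rsrA* libraries and 3.35 to 3.70 in the 3 Δ*rsrB* libraries, against 4.62 to 5.26 in the 3 Δ*ku70* libraries.

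The members covered a wide range of expression in the parental strain. Mean levels ran from 0 to 1272 FPKM in Δ*rsrA* and from 0.123 to 1470 FPKM in Δ*rsrB*, against 1.62 to 6329 FPKM in Δ*ku70*. In Δ*ku70*, 31 members lay under 10 FPKM, 84 between 10 and 100, 33 between 100 and 1000, and 5 at or above 1000. A median of 22.9% of the parental level was left in Δ*rsrA* (0% to 47.9%), and a median of 33.6% in Δ*rsrB* (2.33% to 50.7%). Values of 0 were rare. In replicates 1 to 3 of Δ*rsrA*, 3, 3 and 5 members were listed at 0, 1 of them in all 3 libraries. In those of Δ*rsrB*, 0, 2 and 1 members were, and in Δ*ku70* none was.

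On the deposited scale, the median of Δ*rsrA* minus Δ*rsrB* was -0.30 over all 153 members and -0.34 over 8491 genes tested between the mutants. All genes thus leaned toward lower values in Δ*rsrA*, as the members did. This order also moved with the scaling. With the median of ratios 119 members reached -1 in Δ*rsrA* and 153 in Δ*rsrB*. As deposited, the median difference from Δ*ku70* was -1.74 in Δ*rsrA* (-5.56 to -1.01) and -1.31 in Δ*rsrB* (-5.35 to -1.004). The same medians over the 8589 genes with a mean of at least 1 FPKM were -0.29 and 0.04, so Δ*rsrA* values as a whole sat below the parental ones on this scale. A fall of at least 2 was seen in 60 members in Δ*rsrA* and 29 in Δ*rsrB*, 23 of them in both. A fall of at least 3 was seen in 24 and 9 members, 6 of them in both, and a fall of at least 4 in 11 and 4, with only POX08030 in both. Both differences use the same Δ*ku70* libraries and both were used to choose the members, so they are given without a test.

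In limma fits over all genes with a mean of at least 1 FPKM in the 6 libraries compared, 146 of 151 members tested were called lower in Δ*rsrA* at an adjusted p under 0.05, where 29.0% of all 8550 genes tested were called lower. In Δ*rsrB* 84 of 151 members tested were called lower, where 2.23% of all 8597 genes were. Both counts come from the contrasts that chose the members and show nothing further about them. Over all genes, Δ*rsrA* had 2477 lower and 833 higher calls as deposited, 1251 lower and 1526 higher under the median of ratios, and 1088 lower and 1184 higher under quantile normalization. Members called lower in Δ*rsrA* then numbered 127 and 118. The 84 calls in Δ*rsrB* moved most with single libraries. They numbered 19, 26 and 32 without Δ*rsrB* replicates 2, 3 and 1, 34 without Δ*ku70* replicate 2, and 110 of 150 without Δ*ku70* replicate 1. Lower calls over all genes, 192 with every library, moved in the same way, to 27, 34, 50, 54 and 556.

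The spread between replicates was wider in the parental strain, among the members and over all genes. The median SD of the members on the log2 scale was 0.18 in Δ*rsrA* and 0.22 in Δ*rsrB*, against 0.46 in Δ*ku70*. Over the 8589 genes with a mean of at least 1 FPKM it was 0.14 and 0.17, against 0.30. The members' values were shaped by the choice, which capped the parental range and took genes with a high parental mean. They are given as a description only. Replicate 1 of Δ*ku70* was the highest parental value in 84 members, replicate 2 in 56 and replicate 3 in 13. The matching shares of all genes were not counted. With replicate 1 left out of the parental mean, the median difference was -1.66 in Δ*rsrA* and -1.30 in Δ*rsrB*. Of the 153 members, 136 still reached -1 in Δ*rsrA* and 112 did so in Δ*rsrB*, with 107 shared, so 46 members reached the limits only with that library.

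Libraries left out of the choice gave a reading of the same measure, although the rule itself was set with results of all 9 libraries known. The rule was applied without 1 replicate number in all 3 strains, and the genes it chose were then read in the 3 libraries left out, 1 per strain. Without number 1 it chose 246 genes, and 134 of them (54.5%) lay at or under -1 in both mutants in the libraries left out, where 7.13% of the 8589 genes with a mean of at least 1 FPKM did. Without number 2 it chose 178 genes, and 105 of them (59.0%) did so, against a background of 3.95%. Without number 3 it chose 249 genes, and 101 of them (40.6%) did so, against a background of 2.63%. In every case a far larger share of the chosen genes than of all genes lay under the limits again. The background was not matched for parental level, and 5, 7 and 6 of the chosen genes had a mean under 1 FPKM.

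The fall in the left-out libraries was of like size for numbers 1 and 2 and smaller for number 3. Of the genes chosen, 119, 124 and 143 were among the 153 members. The median difference from Δ*ku70* in Δ*rsrA* was -1.73, -1.73 and -1.38 for numbers 1, 2 and 3. In Δ*rsrB* it was -1.31, -1.23 and -0.97. Both differences were below 0 in 82.9%, 92.1% and 95.6% of the genes chosen, where 36.1%, 38.1% and 43.5% of the 8589 genes were. The 2 differences share the left-out Δ*ku70* library. Number 1 had the smallest share of genes below 0 in both mutants and number 3 the smallest share past the limit. A single library per strain allows no test of these values, and the choice for 1 number shares 4 mutant and 2 parental libraries with the choice of members.

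**Figure D2:**
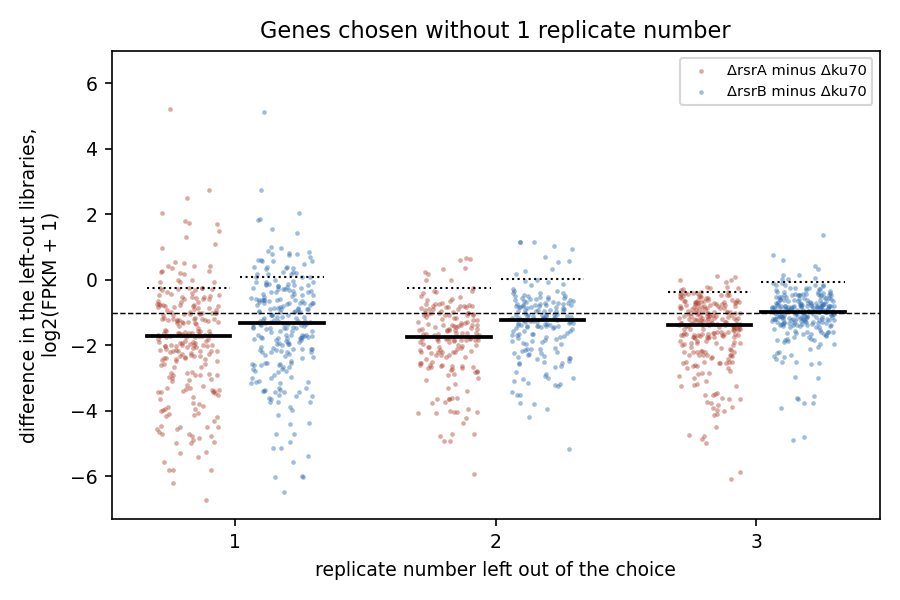
Differences from Δ*ku70* in the 3 libraries left out of the choice, for the 246, 178 and 249 genes chosen without replicate number 1, 2 or 3, on the log2(FPKM + 1) scale. Solid lines are medians over the chosen genes, dotted lines medians over 8589 genes and the dashed line is -1, and the solid lines lie between -1.73 and -0.97.

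The mutants were then set against each other, a contrast that the rule did not use, although the same mutant values entered it. Of 138 members with a mean of at least 1 FPKM over the 6 mutant libraries, 55 (39.9%) were called lower in Δ*rsrA*, with Δ*rsrB* as the comparison, where 45.1% of all 8491 genes tested were. A further 11 members (7.97%) were called higher in Δ*rsrA*, where 15.2% of all genes were. The median difference, Δ*rsrA* minus Δ*rsrB*, was -0.26 over these members and -0.34 over all genes tested, and after median-of-ratios scaling it was 0.04 over the members and -0.01 over all genes. In all, 66 members (47.8%) and 60.3% of all genes were called. On the deposited scale both shares of the members lay below those of all genes. The rule held both mutants low in the members, which limits how far the mutants can differ. Their median level in both mutants also lay below that of all genes. These shares are therefore given as a description only. The split of their calls moved with the scaling. Under the median of ratios 27 of 137 members were called higher and 36 lower, and under quantile normalization 26 and 33 of 138. Over all genes the split was 1294 higher and 3829 lower as deposited. It was 2217 and 2010 of 8498 under the median of ratios and 1944 and 2067 of 8538 under quantile normalization. Lower calls thus made up 23.7% and 24.2% of all genes under these scalings. Under the median of ratios the members' share of lower calls lay slightly above that of all genes.

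On the deposited scale, the ranges of the mutants' values gave the same picture as the calls. Of the 138 members tested, 62 (44.9%) had all Δ*rsrA* values under all Δ*rsrB* values, where 49.4% of all genes did, and 14 (10.1%) had all Δ*rsrA* values above, where 17.0% of all genes did. Over all 153 members the difference ran from -4.12 to 2.66. It was within 0.5 of 0 in 89 members, under -1 in 31 and over 1 in 6.

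The levels left in each mutant are given for each set of calls as a description, since the calls themselves fix their order. The 55 members called lower in Δ*rsrA* had a median fall to 13.4% of the parental level in Δ*rsrA* and to 35.5% in Δ*rsrB*. The 11 called higher in Δ*rsrA* kept a median of 38.8% in Δ*rsrA* and 19.6% in Δ*rsrB*. The 72 with no call kept 32.0% in Δ*rsrA* and 36.7% in Δ*rsrB*. A missed call does not show that the mutants were equal in those genes. The other 15 members were too weak in both mutants to be tested, with a median parental level of 3.46 FPKM.

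**Figure D3:**
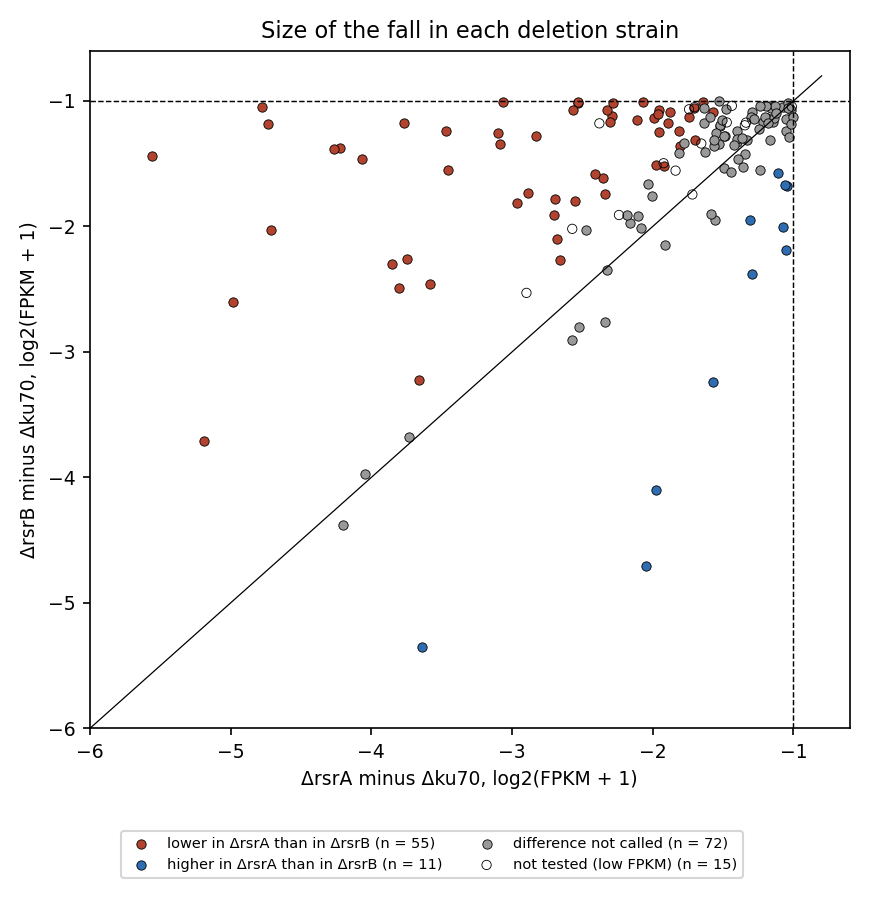
Difference from Δ*ku70* in Δ*rsrA* (x axis) and in Δ*rsrB* (y axis) for the 153 members, both on the log2(FPKM + 1) scale, with 1 point per gene coloured by the call between the mutants. Dashed lines are the limits of -1 and the solid line marks equal falls. The 55 genes called lower in Δ*rsrA* lie above the solid line and the 11 called higher lie below it.

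POX09101 had the deepest fall in Δ*rsrA* and the largest difference between the mutants. It had 5.84, 4.92 and 2.95 FPKM in Δ*rsrA* and 118, 77.1 and 89.5 FPKM in Δ*rsrB*, against 201, 358 and 230 FPKM in Δ*ku70*. The 3 strains formed separate steps, with 1.74% of the parental level left in Δ*rsrA* and 36.1% in Δ*rsrB*. The difference between the mutants was -4.12 (SE 0.24, limma, adjusted p = 1.34e-05), with adjusted p from 7.09e-06 to 1.48e-04 over 14 alternatives. Its fall in Δ*rsrB*, which was used for the choice, was less steady. That fall ran from -1.61 to -1.195 over 14 alternatives (limma, adjusted p 0.0151 to 0.197).

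POX01693 behaved in the same way. It had 20.5, 17.2 and 12.1 FPKM in Δ*rsrA* and 269, 236 and 187 FPKM in Δ*rsrB*, against 383, 497 and 551 FPKM in Δ*ku70*. In Δ*rsrA* 3.48% of the parental level was left, and in Δ*rsrB* 48.3%, close to the limit for membership. The mutants differed by -3.73 (SE 0.21, limma, adjusted p = 1.22e-05, 1.50e-06 to 2.08e-04 over the alternatives). Its fall in Δ*rsrB* ran from -1.23 to -0.904 over 14 alternatives (limma, adjusted p 0.0129 to 0.219), so it did not reach the limit of -1 in all of them.

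POX08890 had the second deepest fall in Δ*rsrA* and was low in both mutants. It had 5.78, 5.84 and 5.51 FPKM in Δ*rsrA* and 7.06, 23.3 and 32.3 FPKM in Δ*rsrB*, against 379, 205 and 187 FPKM in Δ*ku70*. The Δ*rsrA* values were nearly equal, whereas those of Δ*rsrB* spread over a wide range with replicate 1 the lowest. The fall of POX08890 in Δ*rsrB* ran from -4.13 to -3.105 over 14 alternatives (limma, adjusted p 0.00249 to 0.0963). The difference between the mutants was -1.48 (SE 0.47, limma, adjusted p = 0.0284). Over the 14 alternatives the difference ran from -2.08 to -1.02. Without Δ*rsrB* replicate 1 it was -2.08 (SE 0.16, adjusted p = 1.18e-04), and with the replicate block the adjusted p was 0.0113. The call was lost under 8 of the 14, with adjusted p up to 0.108. Among these were both other scalings named above and the fits without any single Δ*rsrA* replicate (adjusted p 0.0611, 0.0666 and 0.0760 without replicates 1, 2 and 3) or without Δ*rsrB* replicate 2 or 3 (0.0944 and 0.0664).

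The 2 members with the deepest fall in Δ*rsrB*, POX05360 and POX09718, had the opposite order of the mutants. POX05360 had 62.9, 64.3 and 63.6 FPKM in Δ*rsrA* and 15.1, 18.4 and 23.8 FPKM in Δ*rsrB*, against 1034, 690 and 731 FPKM in Δ*ku70*. Both mutants were far under the parental strain, with 7.78% of its level left in Δ*rsrA* and 2.33% in Δ*rsrB*, and their values did not overlap. The difference between the mutants was 1.71 (SE 0.16, limma, adjusted p = 1.21e-04, 5.32e-05 to 0.00123 over the alternatives).

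POX09718 had the largest difference in this direction. It had 26.1, 23.2 and 14.5 FPKM in Δ*rsrA* and 2.41, 2.44 and 2.43 FPKM in Δ*rsrB*, against 118, 61.1 and 95.3 FPKM in Δ*ku70*. In Δ*rsrA* 23.2% of the parental level was left and in Δ*rsrB* 2.65%. The mutants differed by 2.66 (SE 0.21, limma, adjusted p = 5.01e-05, 2.74e-05 to 5.71e-04 over the alternatives).

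POX00669 came next. It had 121, 176 and 185 FPKM in Δ*rsrA* and 22.6, 40.1 and 49.2 FPKM in Δ*rsrB*, against 727, 568 and 590 FPKM in Δ*ku70*. The strains again formed 3 steps with Δ*rsrB* the lowest. The mutants differed by 2.12 (SE 0.29, limma, adjusted p = 7.18e-04, 2.43e-05 to 0.00455 over the alternatives).

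The following members were singled out after their values had been seen. POX08030 was the highest member in the parental strain and the only one that fell by at least 4 in both mutants. It had 372, 314 and 267 FPKM in Δ*rsrA* and 242, 269 and 334 FPKM in Δ*rsrB*, against 10214, 4191 and 4584 FPKM in Δ*ku70*. The mutant values overlapped, with 5.02% of the parental level left in Δ*rsrA* and 4.45% in Δ*rsrB*, and replicate 1 of Δ*ku70* lay far above the other parental values. The difference between the mutants was 0.17 (SE 0.17, limma, adjusted p = 0.391, 0.0342 to 0.808 over the alternatives).

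POX08341 carries the identifier next to the deleted POX08340. It had 32.2, 24.4 and 23.6 FPKM in Δ*rsrA* and 24.1, 22.5 and 16.8 FPKM in Δ*rsrB*, against 172, 177 and 142 FPKM in Δ*ku70*. The mutants overlapped and lay far under the parental strain, with 16.3% of its level left in Δ*rsrA* and 12.9% in Δ*rsrB*. They differed by 0.33 (SE 0.18, limma, adjusted p = 0.144, 0.0152 to 0.383 over the alternatives). On the other side of the deletion, POX08339 was no member, with 17.8, 18.8 and 19.0 FPKM in Δ*rsrA* and 285, 237 and 215 FPKM in Δ*rsrB*, against 11.7, 73.9 and 65.6 FPKM in Δ*ku70*. In Δ*rsrB*, POX08341 thus lay under all 3 parental values and POX08339 above all 3, and the part of the deletion itself in these values was not tested. Neither neighbour of the deleted *rsrA* was a member. POX01906 had 123, 118 and 93.2 FPKM in Δ*rsrA* and 9.35, 6.79 and 6.28 FPKM in Δ*rsrB*, against 9.42, 4.35 and 5.13 FPKM in Δ*ku70*. POX01908 had 11.8, 11.2 and 12.5 FPKM in Δ*rsrA* and 15.4, 14.4 and 13.4 FPKM in Δ*rsrB*, against 14.9, 18.6 and 25.5 FPKM in Δ*ku70*. The part of the deletion in these values was not tested either.

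**Figure D4:**
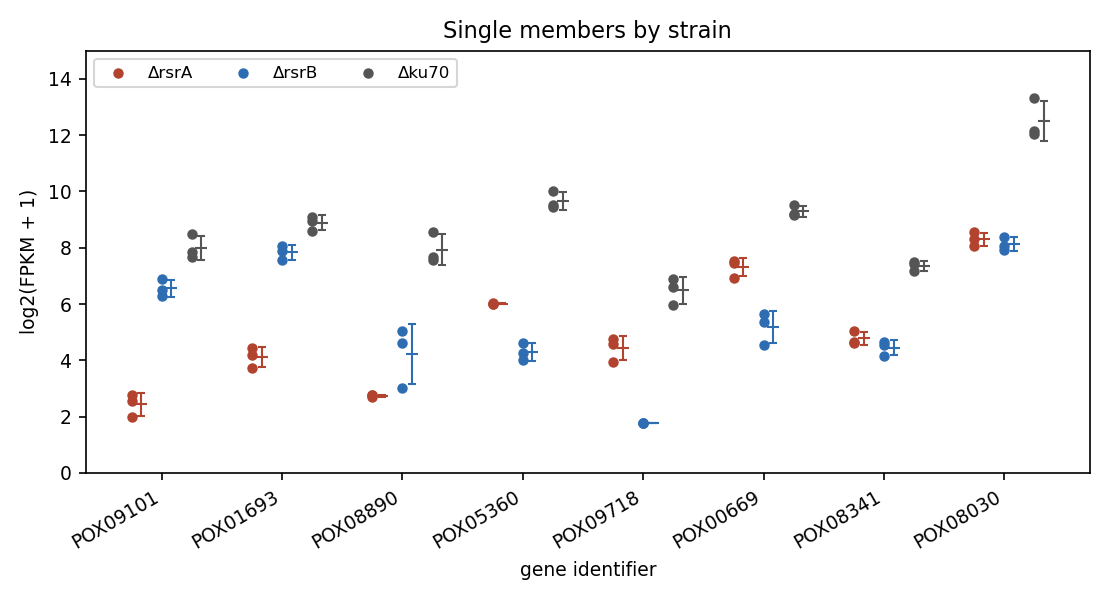
Level of 8 single members in each library, as log2(FPKM + 1), with the strains Δ*rsrA*, then Δ*rsrB*, then Δ*ku70* from left to right for each gene, 1 point per library and the mean ± SD (n = 3) beside the points. POX09101, POX01693 and POX08890 are lowest in Δ*rsrA*, POX05360, POX09718 and POX00669 are lowest in Δ*rsrB*, and in POX08341 and POX08030 the mutants overlap.

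Some members had consecutive identifiers. There were 15 such runs with 31 members (20.3% of 153), and 3.03% of all 9721 genes had an identifier next to that of a member. Of the runs, 14 were pairs and 1 held 3 members. Allowing gaps of up to 5 identifiers gave 19 groups with 47 members, the largest with 6. The identifiers run from 1 to 9834 with 113 numbers not listed, and whether consecutive numbers mean adjacent genes was not tested, since no coordinates were used.

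Neighbours in a run did not always fall to the same depth. In 6 of the 15 runs the members lay within 0.5 of each other in both mutants. POX01693 and its neighbour POX01692 were of this kind, as POX01692 had 22.3, 18.8 and 13.0 FPKM in Δ*rsrA* and 257, 228 and 172 FPKM in Δ*rsrB*, against 424, 512 and 553 FPKM in Δ*ku70*. In 3 runs the members lay more than 1 apart in Δ*rsrA*, and in 4 runs in Δ*rsrB*.

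The run of 3 members, POX09717 to POX09719, was not uniform in its order of the mutants. POX09717 had 121, 97.5 and 73.2 FPKM in Δ*rsrA* and 23.1, 38.6 and 28.1 FPKM in Δ*rsrB*, against 281, 227 and 361 FPKM in Δ*ku70*. Like POX09718, it was higher in Δ*rsrA* than in Δ*rsrB*, by 1.67 (SE 0.23, limma, adjusted p = 7.97e-04, 3.28e-04 to 0.00453 over the alternatives). POX09719 had 9.50, 9.63 and 4.84 FPKM in Δ*rsrA* and 8.72, 7.95 and 7.39 FPKM in Δ*rsrB*, against 153, 95.7 and 102 FPKM in Δ*ku70*. Its mutants overlapped, with a difference of -0.05 (SE 0.24, limma, adjusted p = 0.854, 0.184 to 0.998 over the alternatives).

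**Figure D5:**
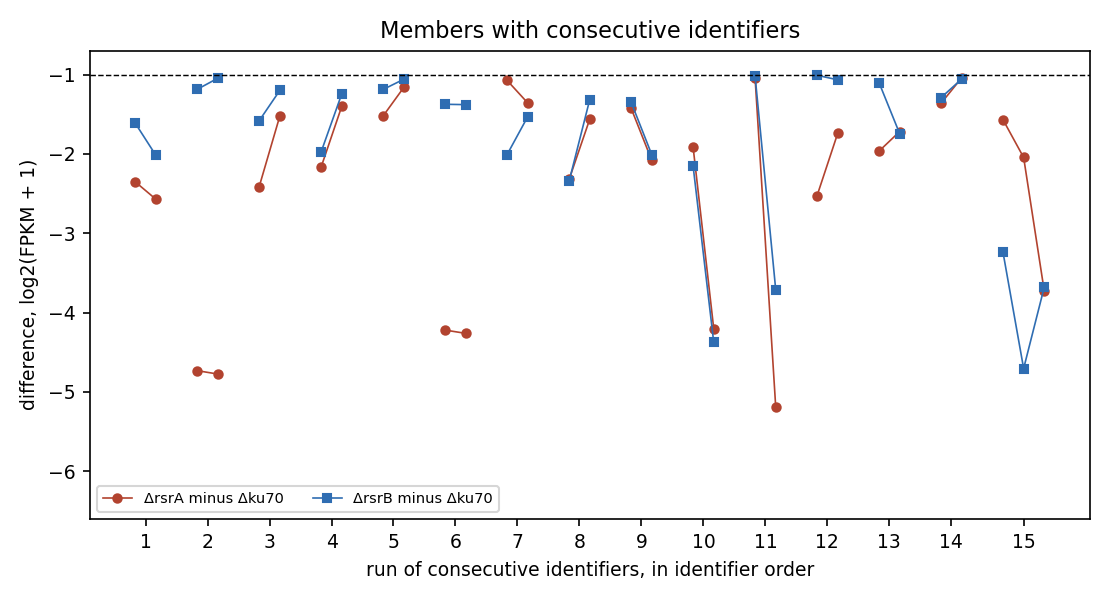
Difference from Δ*ku70* in Δ*rsrA* (circles) and in Δ*rsrB* (squares) for the 31 members with consecutive identifiers, on the log2(FPKM + 1) scale, with members of a run joined by a line and the limit of -1 dashed. In 6 of the 15 runs the joined members lie within 0.5 of each other in both mutants, and the last run is POX09717 to POX09719.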

How the data were processed

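Poly(A) RNA of 9 libraries was sequenced at BGI. The authors deposited 1 list of FPKM values per library. Among the tools, bcl2fastq and HISAT2 are in the submitters' processing notes, and BWA, RSEM, Bowtie2 and NOISeq are in the study's methods. The role of each, the strandedness and the read filters are not given in the sources used here. FPKM values are not counts and give no absolute depth, so a count test and counting intervals were not used. As FPKM is relative to the library, strong genes that rise push the values of the rest down. The lists share 9721 genes.

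Values were transformed to log2(FPKM + 1). The members and all lists, rules and tests were chosen with earlier results of these data known. The contrasts were fitted in R 4.3.3 with limma 3.58.1 (lmFit, then eBayes with a trend) over the 6 libraries compared, for genes with a mean of at least 1 FPKM, and Benjamini-Hochberg adjusted p-values under 0.05 were called. The p-values measure the spread between 3 libraries per strain. Named genes were *rsrA* and *rsrB*, the 2 members with the largest fall in each mutant, and the 2 with the largest difference between the mutants in each direction among members whose mutant values did not overlap. Alternatives were a pseudocount of 0.1, other filters and scalings, 1 fit over 9 libraries, a replicate block and leaving out each library. Of these steps, only the limma fit was tested on simulated data, for Δ*rsrA* against Δ*rsrB* and with independent noise.

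Replicate numbers come from the titles. Across genes, deviations from the strain mean in mutant libraries with the same number had r = 0.581, 0.101 and 0.470, all over the limit of 0.1 for pairing. This pairing comes from the values alone. Mutant libraries with different numbers had r = -0.556 to 0.250. Replicate 2 of Δ*rsrA* with replicate 3 of Δ*rsrB* (0.250) and replicate 3 of Δ*rsrA* with replicate 2 of Δ*rsrB* (0.108) passed the value of number 2, so the values do not set that pair apart.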

Additional observations from a re-analysis of the deposited data

Results flagged for a closer look

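Members whose change differed between the mutants by the test of the difference itself (limma, adjusted p under 0.05) numbered 66 of 138 tested (47.8%), where 60.3% of all genes tested differed. An unadjusted p under 0.05 was found for 72 members and for 64.9% of all genes. The rule held both mutants low in the members, so these shares are a description only. Of the members named by rule, POX09101 (-4.12), POX01693 (-3.73) and POX08890 (-1.48) were lower in Δ*rsrA* when set against Δ*rsrB* on the log2(FPKM + 1) scale. POX09718 (2.66), POX00669 (2.12) and POX05360 (1.71) were higher in Δ*rsrA*. The mutants overlapped in none of these 6 genes, which for POX01693 and POX00669 was a condition of being named. All 6 were picked from these same values for large falls or large differences, so the sizes and the calls describe these libraries.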

How the results depend on the processing

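The number of members, 153, stayed within 1.5 times under a pseudocount of 0.1 (198), the median of ratios (121), equal totals (175) and quantile normalization (113), which shared 149, 114, 145 and 99 genes with the 153. It was 47 with a limit of -1.5, 506 with a limit of -0.5, 259 with no limit on the parental range and 94 with a range of at most 1. Leaving out 1 library gave 143 to 270 members, and leaving out a replicate number in all strains 178 to 249. Of the 270 genes without Δ*ku70* replicate 3, 148 were among the 153, and of the 208 without Δ*ku70* replicate 1, 107. The 84 members called lower in Δ*rsrB* became 141 in 1 fit over all 9 libraries, 44 with the replicate number as a block and 19 to 110 with 1 library left out. Lower calls over all genes, 192 in the main fit, became 575, 68 and 27 to 556 under the same settings. Same-numbered Δ*ku70* libraries had r = -0.06, -0.06 and 0.09 with Δ*rsrA*, and 0.05, -0.17 and 0.26 with Δ*rsrB*. Only the last passed the limit of 0.1 for pairing. Members called lower in Δ*rsrA* numbered 116 to 147 with 1 library left out, where lower calls over all genes, 2477 in the main fit, numbered 1111 to 3432. The median difference between the mutants, -0.26, became 0.041 with the median of ratios and 0.049 with quantile normalization, and was -0.36 to -0.21 with 1 library left out. Members that differ between the mutants numbered 66, or 76 (55.1%) with the block, which raised the share of all genes from 60.3% to 69.0%. Between the mutants, the 6 members named by rule kept their direction under all 14 alternatives, and all but POX08890 kept their call. Depth is unknown, so how far it limits the 15 untested members was not tested.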
